A study of Arabidopsis thaliana with 12 samples.

Results

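Ribosome-bound mRNA was set against total mRNA in seedlings of an eif4e mutant of Arabidopsis thaliana. The comparison rests on 6 of the 12 libraries of the series, chosen by their labels: 3 of mRNA bound to immunopurified ribosomes and 3 of total mRNA from the mutant, paired by replicate number. All plants were of the Columbia background and were whole seedlings 9 days old, kept at 22 °C in days of 16 h light and 8 h dark and frozen at zeitgeber time 16 h, the end of the light period. The other 6 libraries are the same pair of kinds from wild type seedlings, with 3 replicates each, and they enter only where the mutant is set against wild type. The labels name neither the allele nor a line with a tagged ribosomal protein. Whether the replicates were grown apart is not stated in them either, and the p-values therefore speak only of the spread among these libraries, which may be technical.

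The cap at the 5′ end of an mRNA is bound by eIF4E, which, with the scaffold eIF4G and the helicase eIF4A, brings in the small ribosomal subunit. Plants have a second cap-binding isoform, eIFiso4E. Pulling down ribosomes recovers the mRNAs that carry them, so the ratio of ribosome-bound to total mRNA compares the share of a gene in the ribosome-bound pool with its share in all mRNA. Such a ratio is known to depend on how readily an mRNA is initiated, on how much of it is held away from ribosomes, and, in a whole seedling, on the cells whose ribosomes are recovered.

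The ribosome-bound eif4e libraries held 20083555 to 22034288 counts and the total eif4e libraries 17058704 to 19973299. The median count over tested genes was 337 to 417 per library. Replicates correlated across genes by 0.979 to 0.989 in the ribosome-bound eif4e group and by 0.978 to 0.992 in the total eif4e group. Replicate 2 of the mutant stood apart from replicates 1 and 3 in both kinds of library. It had lower levels of root hair genes and higher levels of some other root genes. Values without it are given for some of these genes and lists, not for all. Wherever a replicate is left out, only the eif4e libraries of that number were dropped, and all wild type libraries were kept. Levels are in FPKM (fragments per kilobase of gene, scaled to sequencing depth), given in the order of replicates 1, 2 and 3. Differences are log2 ratios of ribosome-bound over total mRNA with their standard errors (SE) and adjusted p-values from edgeR's quasi-likelihood test with Benjamini-Hochberg adjustment over all 19170 tested genes. A gene is said to be higher or lower on ribosomes where its adjusted p was under 0.05. Because libraries are scaled to each other, a difference is relative to the typical gene, whose median difference was -0.01. The strand setting of the counting is unknown, so reads of genes whose annotated spans overlap cannot be told apart. Of the genes described here this applies, among others, to MT3, PSAN, PSBR, LHB1B2, HTA9, DCL1, TOC159, FLC, CASP1, GL2, PP2-A1, MIR472, AGL26, MRD1, AT3G09200, AT2G40010, AT5G12110, EIF3G1, DCL2, TIC21, PRP4, MIR853, AGP21, CO, SPL9, SPL15, TRX1, EXT10, RHS19, EXPA7, EXPA18, ARF1, NPH4, OZS1, PSK1, NP1, NAP1;4 and SP1L2.

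The mutant's own gene was examined first. EIF4E (AT4G18040), which encodes eIF4E1, had 12.3, 11.6 and 13.9 FPKM in ribosome-bound eif4e libraries, against 71.8, 92.9 and 87.2 FPKM in ribosome-bound wild type libraries. In total mRNA the eif4e libraries had 8.28, 24.2 and 8.29 FPKM, against wild type levels of 45.8, 44 and 44.2 FPKM. The eif4e libraries lay under the wild type libraries in both kinds without overlap, and the exact two-sided permutation test gave p = 0.1 for each kind, the smallest possible with 3 against 3. Within the mutant the difference between the kinds did not pass the test (0.01 ± 0.22, adjusted p = 0.964), with pair values of 0.60, -1.06 and 0.83. Pair 2, with its high total value of 24.2 FPKM, ran against the other pairs, and without it the difference was 0.72 (adjusted p = 1.67e-05). In wild type the difference was 1.02, and the mutant's difference minus that of wild type was -1.01 (adjusted p = 0.00858). This call rested on replicate 2 of eif4e, without which the value was -0.30 (adjusted p = 0.162), and it was also lost without the pairing (adjusted p = 0.207).

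The mutant's ribosome-bound and total mRNA differed for most genes, by small amounts. Of 19170 genes, 13940 passed the test (72.7%): 6826 were higher on ribosomes (35.6% of the genes tested) and 7114 were lower (37.1%). These percentages are the background against which each gene class is read. The middle 90% of genes lay between -1.07 and 1.01. At least 2-fold differences were found for 998 genes that were higher (5.21%) and 1083 that were lower (5.65%). At least 4-fold differences were nearly all toward lower levels on ribosomes, with 183 genes lower (0.955%) and 16 higher (0.0835%). Of the 13940 genes, 13766 had the same sign in all 3 pairs.

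The differences were ordered by gene length. In the shortest of 10 length classes of similar size, 64 to 712 bases, the median difference was 0.69, and 65.3% of genes were higher on ribosomes and 11.6% lower. In the longest class, 2837 to 16347 bases, the median was -0.64, and 1.73% were higher and 92.4% lower. The medians declined from each class to the next. The 3 pairs gave slopes of -0.376, -0.335 and -0.454 on the log2 scale per doubling of length. Weighted by FPKM, the mean length of an mRNA was 1224, 1225 and 1177 bases in the ribosome-bound eif4e libraries, against 1412, 1398 and 1398 bases in the total eif4e libraries, and these ranges did not overlap. The order held at low and at high levels: among genes of 64 to 1026 bases the median difference was 0.29 in the least abundant group and 0.68 in the most abundant, and among genes of 2068 to 16347 bases it was -0.48 and -0.41.

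**Figure D1:**
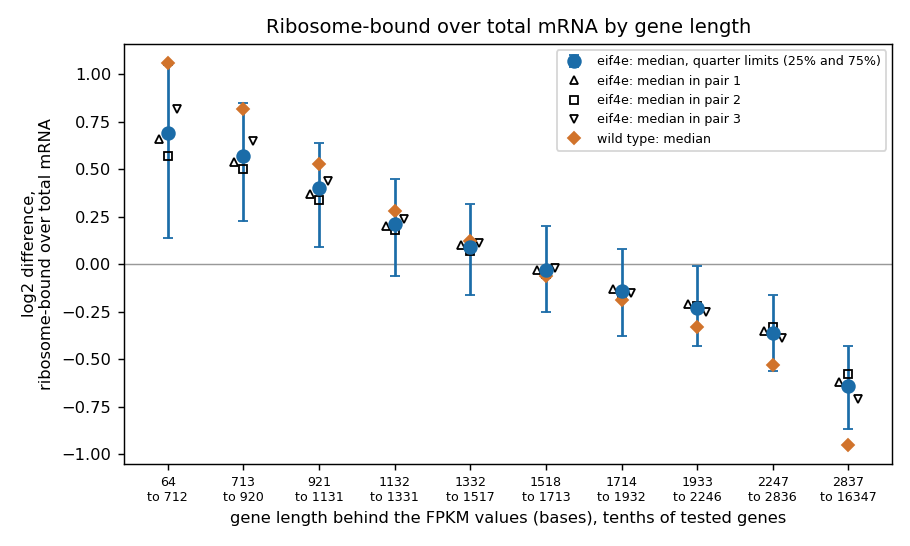
Median log2 difference between ribosome-bound and total mRNA (vertical axis) in 10 classes of gene length in bases (horizontal axis). Circles with bars are the eif4e median and the range from the 25% to the 75% point over genes, open symbols the medians of the 3 eif4e pairs, and diamonds the wild type medians; the eif4e medians run from 0.69 in the shortest class to -0.64 in the longest, and the wild type medians from 1.06 to -0.95.

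Because of this order, the medians of gene lists that follow are given as measured and, beside them, after a length correction. For it, each gene's log2 deviation in a library from its mean over all 12 libraries was taken. A smooth curve of these deviations on gene length was then removed from every library. With the correction 6213 genes were higher on ribosomes (32.4%) and 5196 lower (27.1%), and 1.1% of genes were at least 2-fold higher. Whether the dependence on length arose in the cells, in the purification or in library preparation was not tested.

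**Figure D2:**
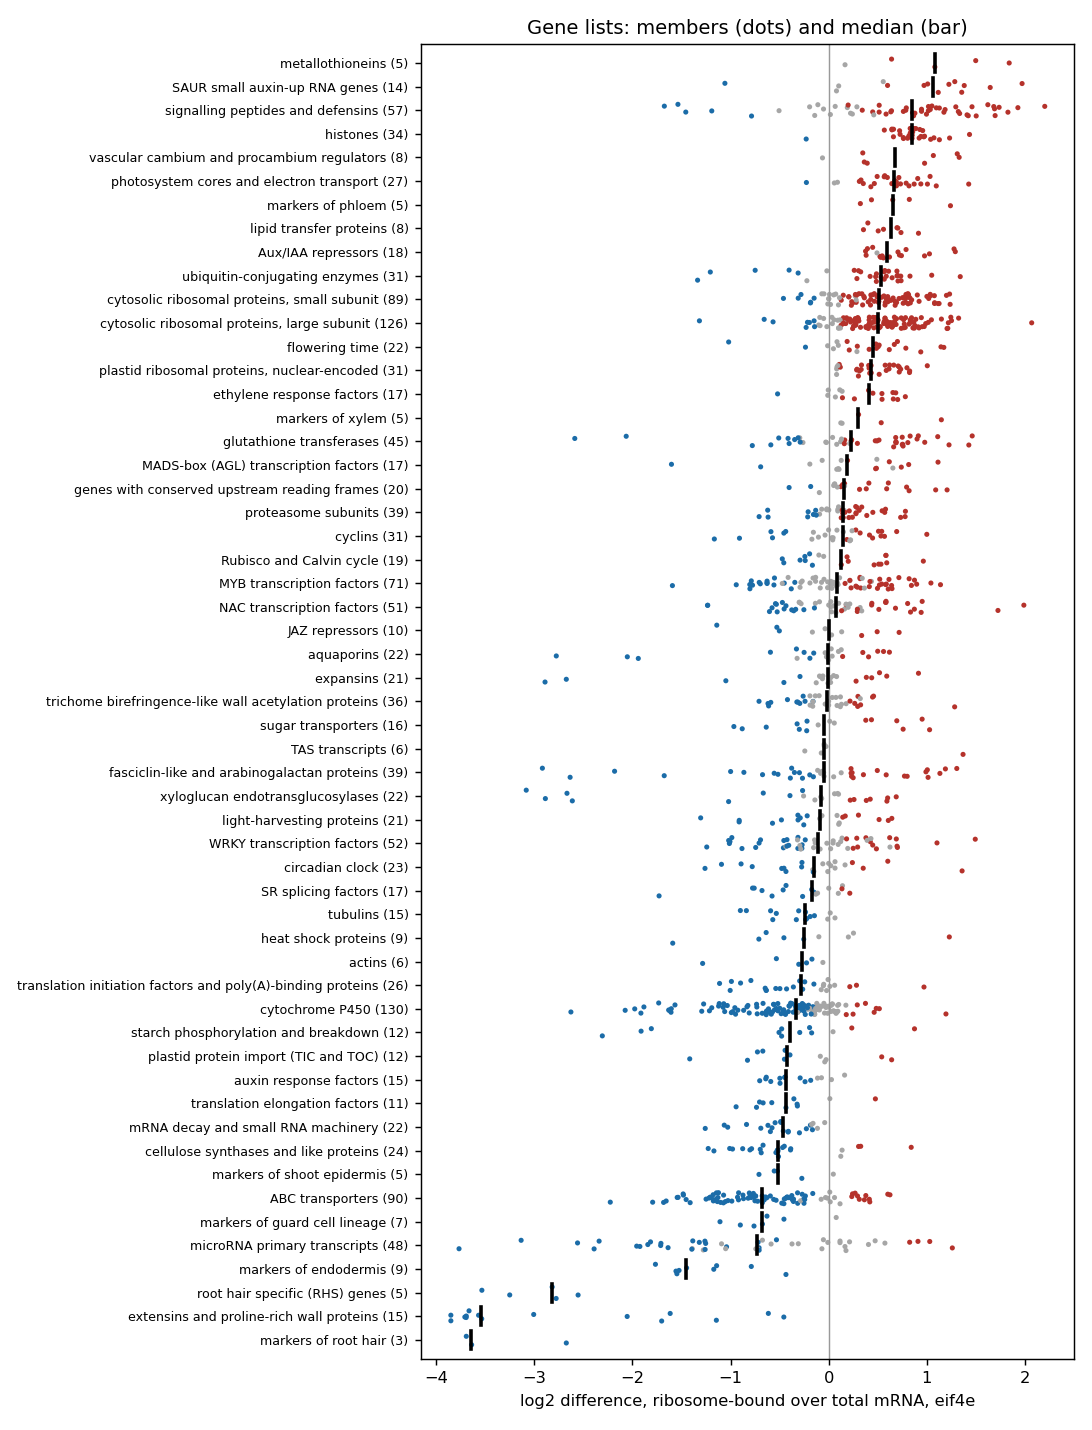
Log2 difference between ribosome-bound and total mRNA in eif4e (horizontal axis) of every tested member (dots; red higher, blue lower, grey not past the test) and the median (bar) of each gene list shown, ordered by median, with the number of tested members in brackets. The shoot meristem, trichome and root tip lists, with 2, 1 and 0 tested members, are not shown. Metallothioneins lead with a median of 1.08, and root hair markers are last with -3.64.

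Ribosomal proteins, the structural parts of the ribosome, are short and were mostly higher on ribosomes. Of 89 tested genes of the cytosolic small subunit 70 were higher and 6 lower, with a median of 0.51, and of 126 genes of the large subunit 104 were higher and 8 lower, with a median of 0.50. Of 31 nuclear genes for ribosomal proteins of the plastid 27 were higher and 0 lower (median 0.43). After the length correction the medians were 0.02, -0.04 and 0.07, so that the direction of the large-subunit median turned, and the counts were 35 higher and 33 lower for the small subunit and 40 higher and 50 lower for the large. Ribosomal protein genes come in near-identical copies, between which the counting could have split reads.

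RPL18 (AT3G05590), a protein of the large subunit, stood far above its class. Its level was 5299, 5576 and 5189 FPKM on ribosomes, against 1264, 1395 and 1269 FPKM in total mRNA. The difference was 2.07 ± 0.05 (adjusted p = 6.28e-17), the next highest large-subunit gene AT2G39390 had 1.32, and the length correction left 1.57. The immunopurification method that the labels cite is known for using an epitope-tagged RPL18. The labels name no such construct in these plants, and whether reads from one entered this gene was not tested. In wild type the difference was 1.93, and the test between genotypes did not pass (adjusted p = 0.187).

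Some ribosomal protein genes ran the other way. RPS15A (AT1G07770) had 219.6, 261 and 298 FPKM on ribosomes, against 332, 375 and 388 FPKM in total mRNA, and all 3 pairs were lower (-0.46 ± 0.05, adjusted p = 2.11e-07). AT2G19750, another small-subunit gene of the list and also short, had 143, 144 and 161 FPKM on ribosomes, against 65.0, 65.1 and 65.5 FPKM in total mRNA (1.23 ± 0.06). The groups did not overlap for either gene. Within the large subunit AT2G40010 (-1.32) and AT3G09200 (-0.66) were the lowest.

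As measured, the genes for the factors that drive translation were mostly lower on ribosomes, whereas those for the ribosome itself were mostly higher. Of 26 initiation factor and poly(A)-binding protein genes 16 were lower and 3 higher (median -0.28). With the length correction 13 were lower and 7 higher (median -0.21). EIF3A and EIF3C, subunits of the factor that binds the small subunit, were lowest. EIF3A had 21.8, 25.2 and 18.3 FPKM on ribosomes, against 46.3, 50 and 47.5 FPKM in total mRNA (-1.11 ± 0.06, adjusted p = 5.57e-12), and EIF3C had 34.7, 35.6 and 29.3 FPKM on ribosomes, against 65.7, 71 and 67.2 FPKM in total mRNA. Both genes are long, 3451 bases for EIF3A and 3064 for EIF3C, and the length correction left -0.47 and -0.46 in this order. The cap-binding isoform eIFiso4E, listed as LSP1 (AT5G35620), was the highest member. LSP1 had 56.5, 61.5 and 63.1 FPKM on ribosomes, against 31.0, 32.2 and 31.5 FPKM in total mRNA (0.97 ± 0.06, adjusted p = 6.59e-12), and the value in wild type was 0.94. The other higher members were EIF3G1 (0.28), also a gene of an eIF3 subunit, and AT2G39990 (0.21). AT2G39990 is listed under the symbol EIF2, which does not settle which factor it encodes.

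Elongation factor genes were also lower, 9 of 11 tested, with a median of -0.44 that the length correction left at -0.43. LOS1, which encodes the translocating factor eEF2, had 216, 230.3 and 197 FPKM on ribosomes, against 403, 443 and 419.6 FPKM in total mRNA (-0.94 ± 0.05, adjusted p = 1.49e-12). LOS1 is 2958 bases long, and the length correction left -0.43. AT5G12110, at 0.48, was the only member that was higher. TCTP (AT3G16640), the translationally controlled tumour protein, is a short and abundant mRNA that was named after its values were seen. TCTP had 1240, 1385 and 1397 FPKM on ribosomes, against 3055, 3680.2 and 3357 FPKM in total mRNA (-1.29 ± 0.06). TCTP is 956 bases long, and 66.2% of the genes of 921 to 1131 bases were higher.

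The photosynthesis genes split by protein class. Of 27 genes for the photosystem cores and electron transport 24 were higher on ribosomes and 1 lower (median 0.67, length-corrected 0.14). Of 21 genes for the light-harvesting antenna 6 were higher and 10 lower (median -0.09, length-corrected -0.26, with 16 lower). PSAN, a subunit of photosystem I, had 1971, 1378 and 2415 FPKM on ribosomes, against 736, 605 and 818 FPKM in total mRNA (1.43 ± 0.07, adjusted p = 8.51e-13). PSBR, a subunit of photosystem II, had 6381, 5629 and 8064 FPKM, against 3313, 3039 and 3169 FPKM in total mRNA (1.10 ± 0.08). ATPC1, the gamma subunit of the plastid ATP synthase, was the lower member (-0.23).

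Among the antenna genes the chlorophyll a/b-binding protein genes LHB1B1 and LHB1B2 were lowest. LHB1B1 had 78.1, 70.0 and 104 FPKM on ribosomes, against 180.2, 191 and 269 FPKM in total mRNA (-1.30 ± 0.07, adjusted p = 1.49e-12). LHB1B2 had 393, 436 and 536 FPKM on ribosomes, against 694, 905 and 1047 FPKM in total mRNA (-0.91 ± 0.06). Lhca6 (0.61) and LHCB4.3 (0.64) were highest. Near-identical antenna genes may have shared reads.

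The carbon-fixing enzymes were divided. Of 19 genes of Rubisco and the Calvin cycle 10 were higher and 7 lower (median 0.13, length-corrected 0.04). CP12-2, a small regulator of the cycle, had 1355, 981 and 1426 FPKM on ribosomes, against 696, 569 and 696 FPKM in total mRNA (0.96 ± 0.06). The Rubisco small subunit gene RBCS1A, the most abundant mRNA of every library, had 19264, 15926 and 21075 FPKM on ribosomes, against 14866, 12501 and 14307 FPKM in total mRNA (0.46 ± 0.06), and with the length correction 0.10. The aldolase FBA2 (-0.47) and the transketolase AT3G60750 (-0.46) were lowest, and AT3G60750 turned to 0.04 with the correction.

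Histone genes, which encode the proteins that package DNA, were higher on ribosomes in 33 of 34 cases, with a median of 0.85 that the length correction left at 0.23 with 24 higher and 1 lower. HTB2, a histone H2B, had 214, 193 and 250 FPKM on ribosomes, against 90.7, 80.0 and 118 FPKM in total mRNA (1.23 ± 0.05, adjusted p = 8.66e-14). The histone gene AT5G59970 had the highest difference, 1.43. HTA9, an H2A variant, was the single lower member, with 120.1, 141 and 151 FPKM on ribosomes, against 153, 173 and 167 FPKM in total mRNA (-0.23 ± 0.06, adjusted p = 0.0027).

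Both protein families of the auxin transcriptional response were examined. Aux/IAA proteins are short-lived repressors, and 17 of 18 tested genes were higher on ribosomes and 0 lower (median 0.59, length-corrected 0.42). Their partners, the auxin response factors, were lower in 11 of 15 cases and higher in 0 (median -0.44). With the length correction the response factors turned to a median of 0.19, with 9 higher and 2 lower, while 14 of the 17 Aux/IAA genes remained higher. IAA28 had 61.6, 69.4 and 68.1 FPKM on ribosomes, against 27.4, 26.7 and 30.0 FPKM in total mRNA (1.28 ± 0.07, adjusted p = 1.3e-12). ARF1 (AT1G59750, -0.70) and ARF7, listed as NPH4 (-0.64), were lowest, and NPH4 turned to 0.19 with the correction.

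SAUR genes, small mRNAs induced by auxin, were higher in 10 of 14 cases and lower in 1, with the high median of 1.06 (length-corrected 0.38). SAUR15 had 3.5, 1.08 and 3.03 FPKM on ribosomes, against 0.682, 0.554 and 0.761 FPKM in total mRNA (1.97 ± 0.38, adjusted p = 9.92e-05). Pair 2 gave the least difference, 0.77, and without it the value was 2.21. The lower member was AT5G01830 (-1.06), which is in the list only by its symbol SAUR21. Its gene model is 2475 bases long, far longer than the list's median of 572 bases, and whether it is a SAUR gene was not tested.

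Genes for secreted peptides and other small proteins were mostly higher. Of 57 tested genes for signalling peptides and defensins, a list drawn up after values were seen, 40 were higher and 5 lower, 23 of them at least 2-fold higher (median 0.85, length-corrected 0.17). CLE26, a peptide of the CLAVATA3-related family, had 13.9, 14.1 and 13.5 FPKM on ribosomes, against 3.71, 3.56 and 5.43 FPKM in total mRNA (1.74 ± 0.16, adjusted p = 4.84e-09). All 8 lipid transfer protein genes were higher (median 0.63), and the length correction removed this (median 0.01, with 1 higher and 3 lower). Of 5 metallothionein genes, which encode cysteine-rich metal-binding proteins, 4 were higher (median 1.08, length-corrected 0.77). The list does not hold MT3, which is described below.

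Long mRNAs for membrane and wall machinery were lower on ribosomes. Of 90 ABC transporter genes 71 were lower and 11 higher (median -0.68), of 24 cellulose synthase and related genes 19 were lower and 3 higher (-0.52), and of 12 genes of the plastid import apparatus 7 were lower and 2 higher (-0.42). With the length correction the medians were -0.05, -0.10 and -0.06. TOC159, the main import receptor, had 26.7, 26.6 and 21.0 FPKM on ribosomes, against 69.3, 64.3 and 68.5 FPKM in total mRNA (-1.42 ± 0.06, adjusted p = 1.95e-13, length-corrected -0.52). The short TIC21 (0.64) and TOC33 (0.54) were higher. ABCG37, a root exporter, had 1.59, 5.28 and 2.17 FPKM on ribosomes, against 8.06, 21.0 and 12.9 FPKM in total mRNA (-2.23 ± 0.08), and the correction left -1.37.

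The machinery of mRNA decay and small RNAs was lower in 18 of 22 cases and higher in 0, and with the length correction its median of -0.47 turned to 0.06, with 8 higher and 1 lower. DCL1, the dicer that makes microRNAs, had 2.99, 3.03 and 2.62 FPKM on ribosomes, against 7.16, 6.67 and 7.32 FPKM in total mRNA (-1.26 ± 0.07), and its corrected value was -0.12. DCL2 had -1.06 and -0.08 in the same order.

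Other lists stayed lower by their median with the length correction. Of 130 cytochrome P450 genes, oxidases of specialised metabolism, 82 were lower and 8 higher (median -0.33, length-corrected -0.19 with 66 lower and 18 higher). Of 15 tubulin genes 12 were lower and of 6 actin genes 5 were lower, with 0 higher in either (medians -0.24 and -0.27, length-corrected -0.16 and -0.25). ACT8 had 104, 113 and 107 FPKM on ribosomes, against 245, 286 and 277 FPKM in total mRNA (-1.28 ± 0.05, adjusted p = 2.75e-14). Of 17 genes for SR splicing factors 10 were lower and 2 higher (median -0.17, length-corrected -0.31), led by SR34b (-1.73). Of 9 heat shock protein genes 5 were lower and 1 higher (median -0.25, length-corrected -0.32). HSC70-1, the abundant cytosolic chaperone, had 438, 437 and 350.5 FPKM on ribosomes, against 1229.8, 1298 and 1234 FPKM in total mRNA (-1.59 ± 0.06, adjusted p = 5.52e-15). HSP18.2, a small heat shock protein, was the higher member (1.23).

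Genes with conserved upstream reading frames carry a short frame ahead of the main one that is known to hold back its translation, some in response to sucrose or polyamines. They were higher rather than lower on ribosomes: of 20 genes 12 were higher and 2 lower (median 0.16), and with the length correction 19 were higher and 0 lower (median 0.41). AT5G15950, a gene of S-adenosylmethionine decarboxylase in polyamine synthesis, had 36.8, 27.7 and 33.5 FPKM on ribosomes, against 15.1, 12.3 and 16.3 FPKM in total mRNA (1.21 ± 0.06, adjusted p = 7.47e-13, length-corrected 1.45). The sucrose-responsive bZIP1 had 1.09 and its relatives bZIP44, GBF6 and bZIP2 had 0.79, 0.61 and 0.59. The transporter MHX (-0.40) and the auxin response factor ETT (-0.18) were lower. Reads on an upstream frame and on the main frame cannot be told apart in such data.

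The study's title names flowering and the circadian rhythm. Of 22 tested flowering-time genes 15 were higher on ribosomes and 2 lower (median 0.45, length-corrected 0.31), beside a background of 35.6% higher and 37.1% lower. FT, the mobile flowering signal, had 4.51, 3.98 and 4.02 FPKM on ribosomes, against 2.32, 1.65 and 1.82 FPKM in total mRNA (1.14 ± 0.18, adjusted p = 7.85e-06). FLC, a repressor of FT, had 3.44, 4.14 and 3.31 FPKM on ribosomes, against 1.45, 1.65 and 1.82 FPKM in total mRNA (1.17 ± 0.18). CO, the activator of FT, differed by 0.94 ± 0.15. The repressors TEM1 (0.79) and MAF3 (0.70) were also higher. The lower members were SPL15 (-1.02) and SPL9 (-0.24), both squamosa-promoter-binding-like factors.

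Clock genes were divided. Of 23 tested genes 4 were higher and 10 lower (median -0.15, length-corrected -0.03 with 8 higher and 7 lower). ELF4, a short component of the evening complex, had 136, 127 and 136 FPKM on ribosomes, against 54.0, 53.5 and 51.7 FPKM in total mRNA (1.36 ± 0.06, adjusted p = 8.85e-14). GI, a long evening gene, had 1.93, 2.57 and 1.58 FPKM on ribosomes, against 4.00, 5.85 and 3.43 FPKM in total mRNA (-1.09 ± 0.09, length-corrected -0.32). PRR7 (-1.26) and ELF3 (-0.78) were lower too, while PRR3 (0.60) was higher. Of the central morning genes, LHY (-0.28) was lower and CCA1 did not pass (-0.15, adjusted p = 0.273).

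Starch breakdown was set apart by 3 of its enzymes, in a list drawn up after values were seen. Of 12 genes 9 were lower on ribosomes and 2 higher (median -0.39, length-corrected 0.03). PWD (AT5G26570), a dikinase that phosphorylates starch, had 13.0, 13.0 and 10.3 FPKM on ribosomes, against 62.5, 60.6 and 60 FPKM in total mRNA (-2.31 ± 0.06, adjusted p = 9.05e-17). SEX1, the dikinase that acts before it, had 20.1, 22.9 and 17.9 FPKM on ribosomes, against 73.9, 73.5 and 70.1 FPKM in total mRNA (-1.81 ± 0.07). DPE2, which handles maltose in the cytosol, had 20.1, 20.1 and 16.3 FPKM on ribosomes, against 75.6, 75.8 and 65.7 FPKM in total mRNA (-1.91 ± 0.05). For PWD, SEX1 and DPE2, in this order, the length correction left -1.59, -0.92 and -1.32. The short phosphatase LSF2 was higher (0.87), and SEX4, another phosphatase, was slightly so (0.23).

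Markers of cell types moved in both directions, by more than most functional lists. In whole seedlings, fewer ribosomes recovered from a cell type and less of an mRNA on the ribosomes of that type cannot be told apart, and their part in the other results was not tested. Of the 4 root hair markers 3 were tested and all were lower, with a median of -3.64 (length-corrected -3.35). Summed over the list, they held 0.977 to 3.32 FPKM on ribosomes and 11.4 to 39.7 FPKM in total mRNA. PRP3, a proline-rich protein of the root hair wall, had 2.51, 0.627 and 2.33 FPKM on ribosomes, against 32.7, 9.06 and 31.4 FPKM in total mRNA (-3.69 ± 0.11, adjusted p = 6.27e-16). Replicate 2 had the lowest level in both kinds, the ratio was similar in each pair, and without pair 2 the difference was -3.67. SHV2, also called COBL9, had -3.64 and EXPA7 had -2.67, and RHD6 did not reach the minimum level.

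Extensins and proline-rich wall proteins, a list drawn up after values were seen, held the lowest value of the genes named here. All 15 were lower, 13 of them at least 2-fold (median -3.54, length-corrected -3.18). EXT12 had 1.37, 0.639 and 1.11 FPKM on ribosomes, against 20.9, 6.11 and 19.9 FPKM in total mRNA (-3.85 ± 0.12, adjusted p = 7.78e-16). EXT6 had 1.46, 0.465 and 1.5 FPKM on ribosomes, against 24.5, 5.65 and 21.4 FPKM in total mRNA (-3.85 ± 0.11). Their repetitive, related sequences may have shared reads. LRX3 (-0.46) and PRP4 (-0.62) were the least lowered. The RHS genes, named for their specificity to root hairs and also listed after values were seen, were lower in 5 of 5 tested cases (median -2.82, length-corrected -3.16), with RHS12 at -3.53 and RHS19 at -3.25. Without pair 2 the medians of the extensin and RHS lists were -3.59 and -3.06.

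Other wall and channel families carried a few very low members in lists that were mixed as measured and leaned lower with the length correction. Of 22 xyloglucan endotransglucosylase genes 7 were higher and 8 lower (median -0.08), and 3 and 13 with the correction (-0.32). XTH12 (-3.08), XTH26 (-2.89) and XTH14 (-2.61) were among the lowest genes. Without pair 2 their values were -3.14, -2.78 and -2.57 in this order. In replicate 2 XTH12 and XTH26 had only 5 and 3 counts on ribosomes. Of 21 expansin genes 6 were higher and 5 lower (median -0.01), and 6 and 11 with the correction (-0.24), with EXPA18 at -2.89. Of 39 fasciclin-like and arabinogalactan protein genes 16 were higher and 16 lower (median -0.05), and 9 and 22 with the correction (-0.22), with FLA6 at -2.92, AGP3 at -2.63 and AGP21 at 1.30. Of 22 aquaporin genes 6 were higher and 8 lower (median -0.01), and 6 and 13 with the correction (-0.21), with the lowest value for TIP2;3 (-2.78).

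The endodermis, the root layer that carries the Casparian strip, was lower in all 9 markers, 7 of them at least 2-fold (median -1.45, length-corrected -1.74). The list summed to 33.1 to 35.9 FPKM on ribosomes and to 72.5 to 82.1 FPKM in total mRNA. CASP1, a scaffold of the Casparian strip, had 5.98, 6.77 and 5.52 FPKM on ribosomes, against 17, 18.4 and 19.5 FPKM in total mRNA (-1.56 ± 0.10, adjusted p = 1.38e-11). CASP2 had -1.77, and the transcription factors MYB36 (-0.79) and SCR (-0.44) were less lowered. Unlike the root hair genes, these markers did not set replicate 2 apart in their summed level. The median differences moved little without pair 2 for either list, to -1.47 for endodermis and -3.67 for root hair markers.

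Markers of the shoot surface were lower as well. Of 7 tested guard cell lineage genes 6 were lower and 0 higher (median -0.68, length-corrected -0.75), with sums of 42.9 to 53.0 FPKM on ribosomes and 65.2 to 82.4 FPKM in total mRNA. TMM, the receptor-like protein TOO MANY MOUTHS, had 5.07, 4.40 and 5.39 FPKM on ribosomes, against 13.0, 8.09 and 12 FPKM in total mRNA (-1.11 ± 0.09). OZS1, the anion channel SLAC1, had -0.90, and KAT1 did not pass (0.08). Of 5 epidermis markers 4 were lower (median -0.52), and with the length correction 1 was lower and the median turned to 0.03. GL2, the tested marker of trichomes and also of hairless root cells, had 1.38, 1.14 and 0.889 FPKM on ribosomes, against 3.67, 3.57 and 3.65 FPKM in total mRNA (-1.65 ± 0.16).

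Vascular markers were mostly higher on ribosomes, least so in pair 3. In the order of the pairs the medians were 0.83, 0.74 and 0.38 for phloem and 0.43, 0.44 and 0.09 for xylem markers. All 5 phloem markers were higher (median 0.65, length-corrected 0.83), with sums of 329 to 358 FPKM on ribosomes and 167 to 209 FPKM in total mRNA. PP2-A1, a phloem lectin, had 249, 237 and 248 FPKM on ribosomes, against 96.2, 104 and 119 FPKM in total mRNA (1.24 ± 0.06, adjusted p = 5.03e-13). APL, a regulator of phloem identity, had 12.8, 11.3 and 12.4 FPKM on ribosomes, against 6.82, 6.50 and 7.92 FPKM in total mRNA (0.82 ± 0.08). SUC2, the companion cell sucrose carrier, had 0.44. Of 5 tested xylem markers 3 were higher and 0 lower (median 0.30), and all 5 were higher with the length correction (median 0.74). XCP2, a xylem protease, had 41.9, 41.0 and 40.6 FPKM on ribosomes, against 17.2, 16.8 and 23.4 FPKM in total mRNA (1.15 ± 0.08).

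Regulators of the vascular cambium, the dividing layer between these tissues, were in a list drawn up after values were seen. Of 8 genes 7 were higher and 0 lower (median 0.68, length-corrected 0.90 with all 8 higher). WOX4 had 7.98, 7.01 and 8.73 FPKM on ribosomes, against 3.31, 2.25 and 4.13 FPKM in total mRNA (1.33 ± 0.15, adjusted p = 1.03e-07). LBD4 had 1.31, and HB-8 and LHW had 0.36 and 0.35. The shoot meristem genes STM (-0.19) and KNAT1 (0.04), the tested members of 4, did not pass, and without pair 2 STM did (-0.30, adjusted p = 0.0407). None of the 4 markers of the quiescent centre and root tip reached the minimum level.

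**Figure D3:**
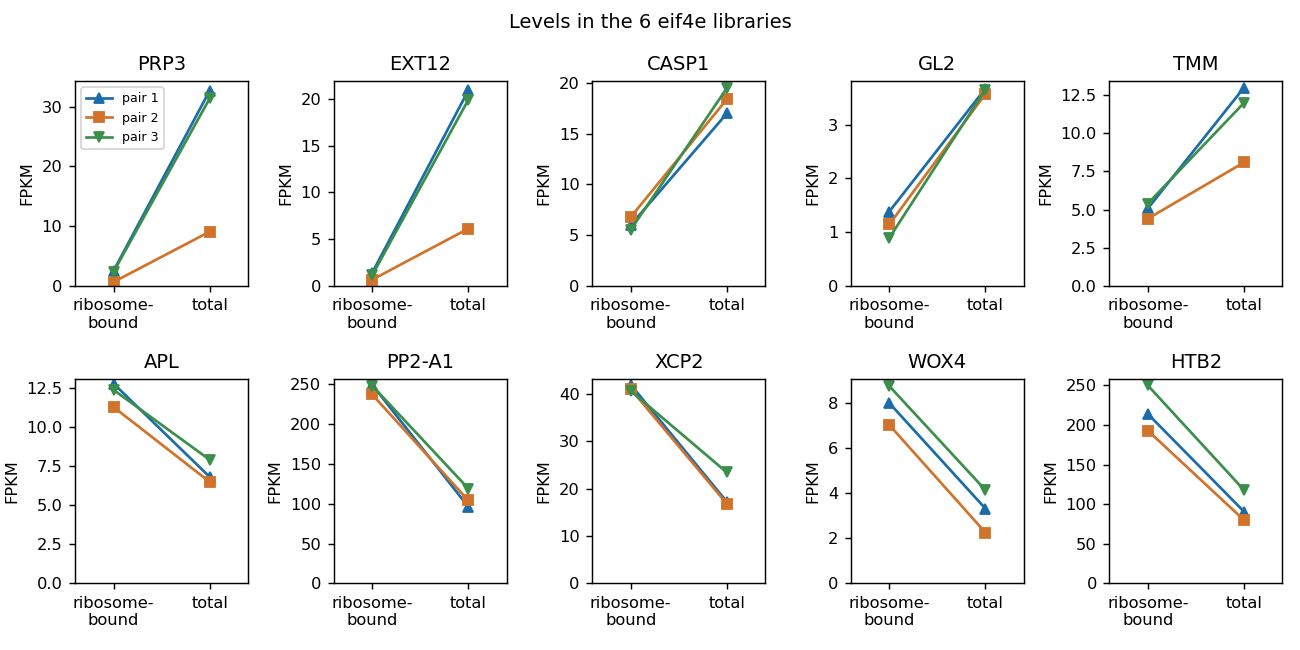
Level in FPKM (vertical axis, linear from 0) of 10 genes in the 6 eif4e libraries, ribosome-bound left and total right, with lines joining the libraries of a pair. PRP3, EXT12, CASP1, GL2 and TMM are lower on ribosomes in each pair, with pair 2 low in PRP3 and EXT12, and APL, PP2-A1, XCP2, WOX4 and HTB2 are higher in each pair.

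The classes of RNA that do not encode proteins differed among themselves. Of 137 long noncoding RNAs 76 were lower and 14 higher (median -0.37, length-corrected -0.44), but only 3 of them do not overlap another gene's span. Of 48 tested microRNA primary transcripts 23 were lower, 19 of them at least 2-fold, and 4 higher (median -0.73, length-corrected -1.18). Among the 25 of these without an overlapping gene the median was -1.09, with 13 lower and 1 higher. Of 32 small nucleolar RNAs 17 were lower and 3 higher (median -1.21, length-corrected -1.39), and the 24 without an overlapping gene had a median of -1.61, with 16 lower and 0 higher. The length correction used lengths with medians of 131 bases for microRNA genes and 83 bases for small nucleolar RNAs. Whether the sequenced transcripts had these lengths was not tested, and the corrected values of these classes depend on it. The class annotated only as ncRNA was divided, with 33 of 99 lower and 26 higher (median -0.07, length-corrected -0.63), and of 5 tRNA genes 2 were higher and 0 lower. Of 79 pseudogenes 43 were lower and 12 higher (median -0.38, length-corrected -0.15). Protein-coding genes had a median of 0.00. The library kit kept strand, and the values without an overlapping gene are those free of the doubt about the counting's strand setting.

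Among the 4 microRNA genes that were higher, MIR853 (1.26) and MIR414 were so by at least 2-fold. MIR414 had 100, 82.5 and 104 FPKM on ribosomes, against 55.0, 42.9 and 46.0 FPKM in total mRNA (1.03 ± 0.07, adjusted p = 3.13e-11). MIR472 was lowest (-3.77 ± 0.97), at 0, 0.274 and 0 FPKM on ribosomes, against 1.77, 1.01 and 2.31 FPKM in total mRNA. Of the 6 TAS transcripts, precursors of trans-acting small RNAs, only TAS3b was higher (1.37 ± 0.36) and 0 were lower (median -0.05). With the length correction 0 were higher and 5 lower (median -0.49), and TAS3b did not pass (0.67, adjusted p = 0.115).

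Families of transcription factors were mixed. The WRKY list of 52 genes had 14 higher and 19 lower (median -0.11), the MYB list of 71 had 27 higher and 16 lower (0.08), the NAC list of 51 had 18 higher and 15 lower (0.07) and the MADS-box list of 17 had 7 higher and 2 lower (0.19). After the correction these medians were -0.15 for WRKY, -0.10 for MYB, 0.10 for NAC and 0.12 for MADS-box genes, so that the MYB median turned. Ethylene response factors were higher in 11 of 17 cases and lower in 1 (0.41, length-corrected 0.14). MYB33, a regulator of gibberellin responses and a microRNA target, had 3.31, 2.38 and 2.26 FPKM on ribosomes, against 8.34, 7.66 and 8.46 FPKM in total mRNA (-1.59 ± 0.10). NAC097 (1.99 ± 0.18) was among the highest of all genes.

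Among the remaining lists, ubiquitin-conjugating enzyme genes were higher in 24 of 31 cases and lower in 5 (median 0.53, length-corrected 0.06), proteasome genes in 22 and 8 of 39 (0.15, length-corrected -0.04) and glutathione transferase genes in 26 and 10 of 45 (0.23, length-corrected -0.08). JAZ repressors of jasmonate signalling were 3 higher and 3 lower of 10 (0.00), and with the correction 2 higher and 6 lower (-0.31). Cyclins were 11 higher and 6 lower of 31 (0.15, length-corrected 0.07), sugar transporters 6 and 7 of 16 (-0.05 in both) and the wall acetylation (TBL) genes 8 and 11 of 36 (-0.02, length-corrected -0.03).

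Over all genes with a symbol, a mean of at least 5 FPKM and the same sign in each pair, the highest differences belonged to short mRNAs. MT3, a metallothionein-like gene, had 3078, 3409 and 2969.6 FPKM on ribosomes, against 697, 758 and 754 FPKM in total mRNA (2.13 ± 0.06, adjusted p = 7.3e-16). MT2B had 5609.5, 5521 and 5378 FPKM on ribosomes, against 1451, 1765 and 1529.6 FPKM in total mRNA (1.84 ± 0.06). KIN2, a cold- and drought-induced protein, had 801, 983 and 1405 FPKM on ribosomes, against 261, 358 and 332 FPKM in total mRNA (1.76 ± 0.09). With RPL18, NAC097 and CLE26, the 12 highest also held the thioredoxin TRX1 (1.96), SP1L5 (1.96), the MYB-related RL4 (1.81) and RL3 (1.76), the cytokinin-activating LOG5 (1.71) and the caleosin CLO4 (1.70). After the length correction all 12 still exceeded 1.

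The 12 lowest were nearly all genes of the root hair and wall lists: EXT12, EXT6, PRP1 (-3.71), HRGP1 (-3.69), PRP3, EXT10 (-3.66), EXT13 (-3.54), RHS19, EXPA18, AGP3 and XTH14. The exception was ICL, isocitrate lyase of the glyoxylate cycle, which turns seed lipid to sugar. ICL had 4.17, 9.42 and 5.12 FPKM on ribosomes, against 24.5, 60.6 and 34.3 FPKM in total mRNA (-2.64 ± 0.08, adjusted p = 7.74e-16). Its level was highest in replicate 2, opposite to the root hair genes, and its difference without pair 2 was -2.60.

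**Figure D4:**
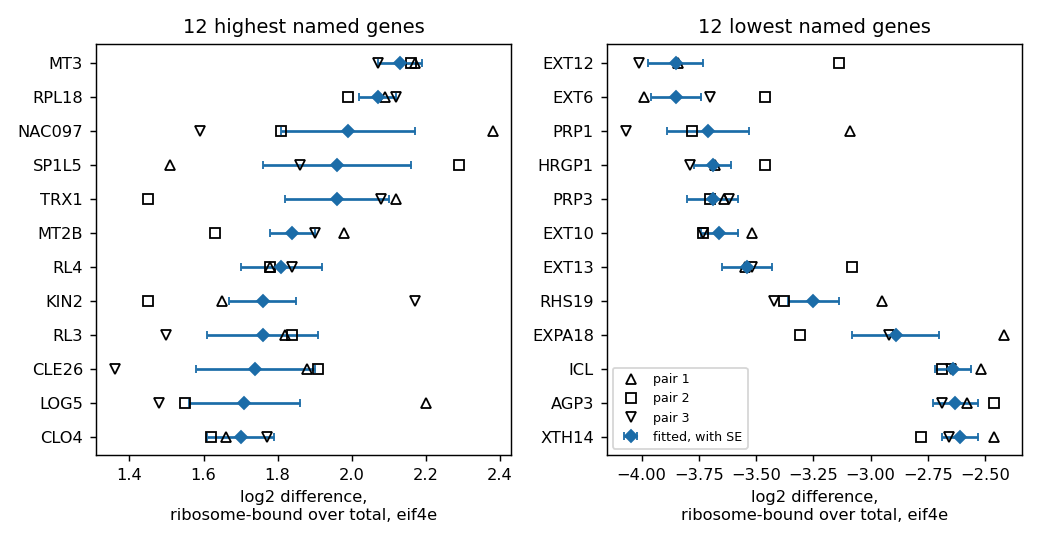
The 12 highest (left) and 12 lowest (right) genes by log2 difference between ribosome-bound and total mRNA in eif4e (horizontal axis); diamonds with bars are the fitted value and its SE, open symbols the 3 pairs. The highest run from 1.70 (CLO4) to 2.13 (MT3), and the lowest from -3.85 (EXT12) to -2.61 (XTH14).

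Setting the mutant's comparison against that of wild type asks what differs with the mutation. The sign of the difference was the same in both genotypes for 89.5% of genes, and 81.9% of the genes at least 2-fold lower in eif4e were so in wild type. The test of the difference between genotypes called 2050 genes more positive in eif4e (10.7%) and 2367 more negative (12.3%). The dependence on length differed too: the slope per doubling of length was shallower in eif4e (-0.388 ± 0.06, SD, n = 3) than in wild type (-0.595 ± 0.038, SD, n = 3). The slopes did not overlap, and the exact two-sided permutation p was 0.1, the smallest possible. With the length correction 458 genes were called more positive in eif4e (2.39%) and 1226 more negative (6.4%), and without the pairing of libraries 321 and 451. The balance of directions depended on scaling: with libraries scaled by their totals alone, 3325 genes were more positive in eif4e and 1674 more negative.

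Ribosomal protein genes were less enriched on ribosomes in eif4e. Their medians were 0.51 in eif4e and 0.89 in wild type for the small subunit and 0.50 in eif4e and 0.91 in wild type for the large, and 62 of 89 and 95 of 126 genes were called more negative in eif4e, with 0 more positive. With the length correction these counts were 23 and 50, with 2 more positive in each list. Without the pairing they were 16 and 47. RPS15A was the clearest case, with a difference of -0.46 in eif4e and 0.50 in wild type (adjusted p = 1.31e-07 for the difference between genotypes). Long-gene lists were less depleted in eif4e: ABC transporters had a median of -0.68 in eif4e and -0.93 in wild type, with 30 of 90 genes more positive, and 1 with the length correction. Of the 20 genes with upstream reading frames 2 were more negative in eif4e and 1 more positive, and with the length correction 10 were more negative and 0 more positive. The decay and small RNA list had -0.47 in eif4e and -0.75 in wild type, with 12 of 22 more positive and 0 after the correction.

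Several abundant mRNAs were lower on ribosomes in the mutant by more than in wild type, with and without the length correction. UBC8, a ubiquitin-conjugating enzyme, had 131, 147 and 149.6 FPKM on ribosomes in eif4e and 347, 392 and 367 FPKM in total eif4e mRNA, a difference of -1.34. In wild type it had 174, 156 and 136 FPKM on ribosomes and 201, 179.9 and 199 FPKM in total mRNA, a difference of -0.20. The genotypes differed by -1.14 (adjusted p = 7.05e-08, length-corrected -1.11). Total levels were higher in eif4e without overlap, while ribosome-bound levels overlapped. Its near relative UBC28, with which it may share reads, stood at -1.21 in eif4e and -0.16 in wild type (difference -1.05, adjusted p = 2.26e-07).

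TCTP differed by -1.29 in eif4e and -0.21 in wild type (difference -1.08, adjusted p = 1.49e-07, length-corrected -0.91). In wild type TCTP had 1428, 1513 and 1252 FPKM on ribosomes and 1809, 1630 and 1814 FPKM in total mRNA, the total levels again lying under those of eif4e without overlap. AGL26, a MADS-box gene, was lower on ribosomes in eif4e (-0.69) and higher in wild type (0.49), a difference of -1.19 (adjusted p = 2.06e-08). On ribosomes AGL26 had 26.8, 26.6 and 29.2 FPKM in eif4e, against 36.5, 35.5 and 35.6 FPKM in wild type seedlings. Its total mRNA stood at 45.4, 45.2 and 46.4 FPKM in eif4e, against 28.2, 26.1 and 28.7 FPKM in wild type seedlings. HSC70-1 (-0.53, adjusted p = 6.59e-05), ACT8 (-0.56, adjusted p = 1.7e-05), LHB1B2 (-0.75, adjusted p = 3.51e-06) and HTA9 (-0.66, adjusted p = 3.68e-05) were also more negative in eif4e and kept that call with the length correction. Of these, LHB1B2 lost it without the pairing (adjusted p = 0.11).

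The most negative differences between genotypes belonged to MRD1 (-2.12), MIR399d (-1.92), the pyrophosphatase family gene PPa3 (-1.72), WRKY12 (-1.71), the phytosulfokine precursor PSK1 (-1.33) and SP1L2 (-1.21). WRKY12 lost its call without replicate 3 (-1.29, adjusted p = 0.07), and PSK1 without replicate 1 (-1.39, adjusted p = 0.0662) and without replicate 2 (-0.64, adjusted p = 0.312). MRD1 had 0.270, 0.404 and 0.282 FPKM on ribosomes and 0.676, 0.904 and 1.05 FPKM in total mRNA of eif4e, against 2.03, 2.89 and 2.77 FPKM on ribosomes and 1.36, 1.91 and 1.87 FPKM in total mRNA of wild type. The most positive belonged to QQS (1.64), NAP1;4 (0.99), the kinase gene NP1 (0.91), ABCC11 (0.88), ABCG40 (0.84) and KICP-02 (0.79). Most of these genes are at low levels: QQS had 1.56, 0.392 and 0.828 FPKM on ribosomes and 0.678, 0.386 and 0.497 FPKM in total mRNA of eif4e, and its difference within eif4e did not pass (0.87, adjusted p = 0.0725). Without replicate 1 neither QQS (1.30, adjusted p = 0.199) nor NAP1;4 (0.86, adjusted p = 0.117) was called. Of the genes with these most negative and most positive values, only MRD1, MIR399d, SP1L2 and NP1 kept the call without the pairing. With the length correction WRKY12 (adjusted p = 0.0515), PSK1 (0.166), ABCC11 (0.079) and ABCG40 (0.0832) lost it. PWD was less depleted in eif4e (-2.31) than in wild type (-3.01), a difference of 0.71 (adjusted p = 1.23e-05, length-corrected 0.37).

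The calls in the cell type lists are read beside the 10.7% of all genes more positive and 12.3% more negative in eif4e, and lists this short allow no statement about a share. For endodermis, phloem, xylem and cambium genes 0 members were called, for root hair (3 tested), RHS (5) and guard cell lineage genes (7) 1 each and for epidermis genes 2 of 5. The root hair and RHS calls were more negative in eif4e, the guard cell and epidermis calls more positive, and without the pairing 0 of them remained. The guard cell call, TMM, was also lost with the length correction (adjusted p = 0.0691) and without replicate 2 (adjusted p = 0.121). Both tested shoot meristem genes were called more negative in eif4e, STM at -0.19 in eif4e and 0.58 in wild type (adjusted p = 0.00155) and KNAT1 at 0.04 in eif4e and 0.44 in wild type (adjusted p = 0.0149). The call of KNAT1 was lost without replicate 3 (-0.30, adjusted p = 0.0731) and without the pairing (adjusted p = 0.249). Of the 15 extensin and proline-rich genes 7 were more negative in eif4e, with or without the length correction, and 0 were without the pairing, with medians of -3.54 in eif4e and -2.80 in wild type. Beside the same shares over all genes, 1 of 22 flowering genes was more negative and 0 more positive, and of 23 clock genes 4 were more positive and 3 more negative. ELF4 was among the negative ones (1.36 in eif4e and 1.75 in wild type), and with the length correction it was not called (-0.07, adjusted p = 0.609). FT (1.14 in eif4e and 1.43 in wild type, adjusted p = 0.417) and GI (-1.09 in eif4e and -1.29 in wild type, adjusted p = 0.27) did not pass.

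**Figure D5:**
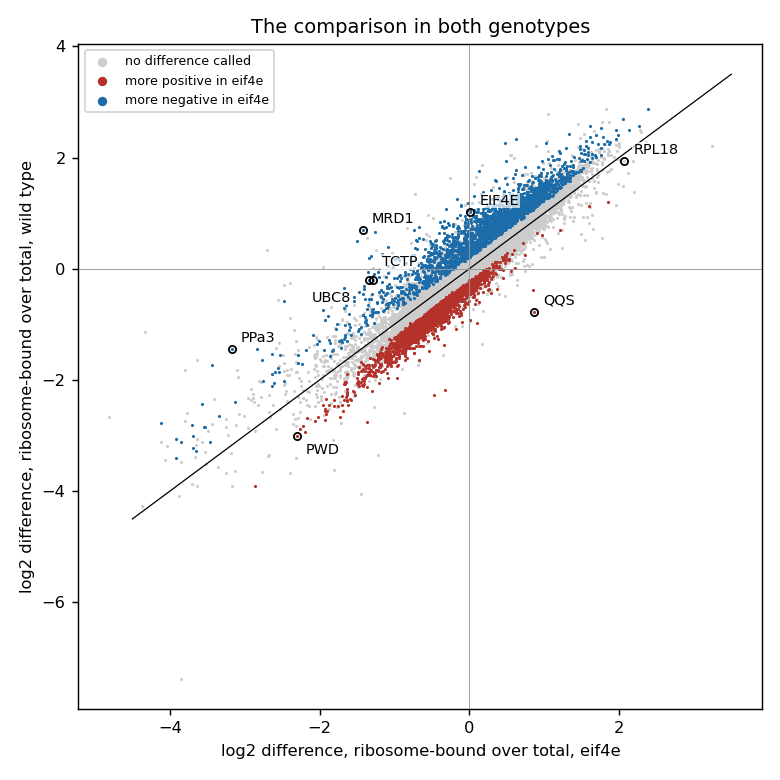
Log2 difference between ribosome-bound and total mRNA in eif4e (horizontal axis) and in wild type (vertical axis), 1 dot per tested gene, with the line of equal values. Blue dots (2367) were more negative and red dots (2050) more positive in eif4e by the test of the difference; UBC8 (-1.34 in eif4e, -0.20 in wild type) and TCTP lie left of the line, and QQS lies right of it.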

How the data were processed

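Seedling mRNA was sequenced in 12 libraries after poly(A) selection with a stranded kit, per the labels' protocols. The submitters' processing notes name TopHat2 2.0.11 and the TAIR10 genome; the counting program and its strand setting are not given in the sources used here. The authors deposited, for each library, a read count and an FPKM value per gene, and gene length follows from both. A gene missing from a library's table was counted as 0; 3308 genes were missing somewhere, with at most 51 counts elsewhere. Of 25835 gene identifiers 25710 matched RefSeq (TAIR10.1), used for names and gene types only.

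The counts were fitted with edgeR 4.0.16 (R 4.3.3), with TMM scaling and a quasi-likelihood test, over all 12 libraries. Genes with a mean of at least 1 FPKM were tested. The fit held 6 blocks of genotype and replicate number and a ribosome-bound term per genotype; the difference of these terms tests eif4e against wild type. Adjustment was by Benjamini-Hochberg. Values of single pairs used CPM plus 0.1. Replicate numbers come from the labels, and same-numbered libraries deviated together (correlations across genes of 0.668, 0.753 and 0.510 in eif4e and 0.357, 0.795 and 0.714 in wild type), so they were treated as pairs. In data simulated for this comparison over 19170 genes, 71% of 100 genes changed 1.5-fold and 98% of 100 changed 2-fold were recovered. No other genes were changed there, whereas 72.7% of genes were called in the data, and the simulated spread was a preset value. These rates check the procedure and do not measure recovery in these libraries. Alternatives were other blocks, scalings and minimum levels, a length correction (lowess, span 0.3), leaving out each eif4e replicate, DESeq2 1.42.0 and limma 3.58.1 on log2(FPKM + pseudocount). No wild type replicate was left out.

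The comparison and the 58 gene lists were chosen with earlier results of these data known, and 5 lists were added after values were seen. Named genes are EIF4E, the 12 highest and 12 lowest (with a symbol, a mean of at least 5 FPKM and the same sign in 3 pairs), in each list the 2 highest and 2 lowest that passed, and the 6 most positive and 6 most negative between genotypes; other members were named after their values were seen, among them RPL18, TCTP, UBC8, UBC28 and AGL26.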

Additional observations from a re-analysis of the deposited data

Results flagged for a closer look

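Genes described in the report are listed here where the test of the difference between eif4e and wild type passed an adjusted p of 0.05 (edgeR's quasi-likelihood test, Benjamini-Hochberg adjustment over all genes tested); each value is the log2 difference of ribosome-bound over total mRNA in eif4e minus that in wild type. Among translation genes the values were -0.96 for RPS15A, -0.47 for AT3G09200, -0.31 for AT2G19750, -0.30 for AT2G39390, -1.08 for TCTP, -1.01 for EIF4E and 0.31 for EIF3A. Among photosynthesis genes they were -0.75 for LHB1B2, -0.54 for LHB1B1, -0.40 for PSBR, -0.37 for RBCS1A and 0.24 for AT3G60750. Root hair and wall genes, all more negative in eif4e, had -0.91 for PRP1, -0.74 for AGP3, -0.73 for EXT6, -0.68 for EXT13, -0.68 for PRP3, -0.55 for XTH14 and -0.47 for HRGP1. Other genes more negative in eif4e had -2.12 for MRD1, -1.92 for MIR399d, -1.72 for PPa3, -1.71 for WRKY12, -1.33 for PSK1, -1.21 for SP1L2, -1.19 for AGL26, -1.14 for UBC8, -1.05 for UBC28, -0.77 for STM, -0.76 for RL3, -0.66 for HTA9, -0.56 for ACT8, -0.53 for HSC70-1, -0.53 for MIR414, -0.52 for ICL, -0.46 for MT2B, -0.42 for KIN2, -0.40 for ELF4, -0.40 for KNAT1, -0.36 for MT3 and -0.30 for IAA28. Other genes more positive in eif4e had 0.27 for PRR3, 0.29 for DCL2, 0.30 for TOC159, 0.32 for NPH4, 0.44 for DPE2, 0.45 for TMM, 0.55 for SEX1, 0.62 for DCL1, 0.71 for PWD, 0.79 for KICP-02, 0.84 for ABCG40, 0.88 for ABCC11, 0.91 for NP1, 0.99 for NAP1;4 and 1.64 for QQS. Of these 56 genes, 43, 45 and 50 kept the call without eif4e replicates 1, 2 and 3 in this order, 31 with the length correction and 18 without the pairing of libraries. All wild type libraries were kept when a replicate was left out. The call of EIF4E was lost without replicate 2 (-0.30, adjusted p = 0.162) and without the pairing (adjusted p = 0.207). The 15 called under all of these settings were ACT8, AGL26, AT3G09200, HSC70-1, HTA9, MIR399d, MRD1, NP1, PWD, RPS15A, SP1L2, STM, TCTP, UBC28 and UBC8. The groups hold 3 libraries each, so no library was tested as an outlier. The cause of these differences was not tested.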

How the results depend on the processing

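The 6826 higher and 7114 lower genes stayed within 1.5 times of these counts under every alternative run. Without the replicate block, that is without the pairing, they were 5570 and 5616, and genes differing between genotypes were 321 more positive and 451 more negative in eif4e, against 2050 and 2367 with it. The counts between genotypes were 875 and 1062 with a block shared by genotypes, 458 and 1226 with the length correction, 1232 and 1456 with DESeq2, and 3325 more positive with library size scaling. Leaving out 1 eif4e replicate, with all wild type libraries kept, gave 1285 (without replicate 1) to 2201 more positive and 1642 to 2505 more negative. Genes at least 2-fold higher, 998, were 635 with a minimum of 5 FPKM, 210 with the length correction, and 578 and 304 with limma and pseudocounts of 1 and 5. Genes at least 2-fold lower, 1083, were 1661 with no minimum, 592 with 5 FPKM, and 634 and 191 with limma. With the length correction the sign turned for list medians of large-subunit ribosomal proteins (-0.04), decay and small RNA genes (0.06), MYB (-0.10), auxin response factors (0.19), glutathione transferases (-0.08), epidermis markers (0.03), proteasome (-0.04) and starch genes (0.03), and, among genes described in the report, for AT3G60750 (0.04), ETT (0.17), NPH4 (0.19), ABCG40 (0.39) and SP1L2 (-0.29). Without replicate 2, medians near 0 also changed sign, to 0.04 for TAS, 0.02 for TBL and aquaporin genes and 0.01 for expansins. Of 132 genes described, 116 kept direction and call with the length correction, 126 without the block, and 128 to 129 with 1 replicate left out. The cause of these changes was not tested. Intervals at low levels are wide: MIR472 rests on few reads.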
